A study of Mus musculus with 9 samples.

Results

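High-copy windows are those windows of 2 kb on the mouse autosomes that stood above 3 times the typical autosomal level in at least 1 of 3 sequenced inputs. They include the ribosomal RNA repeat Rn45s and number 797 of 2472353 autosomal windows (0.0322%), and overlapping or adjoining ones were merged into 121 regions. Windows in 3 intervals on chromosomes 1, 2 and 6 that also exceeded this level (298 windows) were left out by the rule. The inputs chose the members, so input levels below are a description, and a ratio to input has a denominator that the choice used. Levels of the immunoprecipitated libraries played no part in it.

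The 9 libraries, each the only one of its group, come from chromatin immunoprecipitation with sequencing (ChIP-seq) of mouse epiblast-like cells cultured as floating aggregates, a route to primordial germ cell-like cells. SMAD1, which carries the BMP signal to chromatin, was immunoprecipitated from the BV line at 3 times (12, 24 and 36 h) and from the PV line at 36 h. T (Brachyury), a T-box factor of the mesoderm, was immunoprecipitated in PV and TCF1, a factor that responds to WNT signalling, in BV, with no time in their titles. Inputs, which are sonicated chromatin without an antibody, are titled PV, BV and BVSC. All cells carry the strain label C57BL/6 and the cell type label EpiLC. BV is labelled as a Blimp1-mVenus reporter, PV as a Prdm14-mVenus reporter, and the input titled BVSC carries the BV genotype label. The medium held leukaemia inhibitory factor and, in some cultures, BMP4 and WNT3A, but the labels do not say which library had which cytokine. Chromatin reads hold no expression, so the cell type label was not checked against marker genes.

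Mouse genomes carry ribosomal RNA genes as long tandem arrays, and the centromere-near ends of the chromosomes carry satellite repeats. A genome assembly holds only a few of these copies, so reads from many copies pile up on those present. Rn45s is the assembled copy of the 45S precursor gene, from which the 18S, 5.8S and 28S ribosomal RNAs are cut. Such windows are often masked in ChIP-seq analyses.

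Depth was between 14925074 reads (SMAD1 at 36 h in BV) and 134657262 reads (input BV). Levels are counts scaled so that a typical autosomal window has a level of 1, and ratios set an immunoprecipitated level over that of the input of the same line. Coordinates are those of mm9 as the deposited tables write them. No group had a replicate, so intervals are exact (Clopper-Pearson) 95% intervals of the 2 counts and cover counting error only, and no difference has a replicate check. Reads that share a PCR origin are not independent molecules, and these intervals do not cover that. Windows of input BVSC do not add up as those of the rest do: splitting them into bins of 1 kb gave counts below 0 in 47.3% of bins, against 0% in the other libraries. Each bin was the window count minus the bin before it, so 1 mismatch carries on along the chromosome. The 47.3% is therefore not the share of windows that mismatch.

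Most regions were short, and a few long ones held most windows. Of the 121, 32 had a single window and 74 had 1 or 2, whereas 10 regions of 10 windows or more held 498 of the 797 windows (62.5%). The highest input window of a region had a median level of 4.06, with 76 regions at up to 5 and 8 above 50. Every one of the 19 autosomes had at least 1 region, from 16 on chromosome 4 to 1 on chromosome 19. Near the first covered window of their chromosome, within 500 kb, lay 13 regions (10.7%), against 0.314% of the other autosomal windows with usable input. The units differ, since the first share counts merged regions and the second single windows. Of the 13, 4 lie close together on chromosome 16 between 3232001 and 3268001. The non-member windows within 10 kb of a region had a median level of 1.05 in the mean of the inputs. This flank level was over 1.5 at 22 regions and under 0.5 at 10. Member windows of neighbouring regions were left out of it, so it does not show whether a region stood alone. The 3 windows just inside the threshold had a highest input level just over the threshold, on chromosome 1 at 90188001 and chromosome 3 at 60403001 and 105952001, and the 3 just outside stood at 2.98, all on chromosome 3 (60402001, 68246001 and 106083001).

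The member windows held between 0.908% (input BVSC) and 1.26% (SMAD1 at 36 h in BV) of each library's autosomal reads. A single region on chromosome 2 at 98501001 to 98509001 held between 55.0 and 65.5% of those reads. Rn45s, on chromosome 17 at 39978001 to 39987001, held 0.00479% of autosomal reads in input BVSC (0.00459 to 0.00499), 0.00844% in input BV and 0.0133% in input PV. In the immunoprecipitated libraries its share was 0.0135% for SMAD1 at 36 h in BV (0.0129 to 0.0141), 0.0285% for TCF1, 0.0392% for T, 0.0463% for SMAD1 at 36 h in PV, 0.0607% for SMAD1 at 12 h and 0.0758% for SMAD1 at 24 h.

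At Rn45s, 5 of the 6 immunoprecipitated libraries stood above every input. In BV, SMAD1 had a scaled level of 178 at 12 h, 222 at 24 h and 39.7 at 36 h, and TCF1 one of 83.9. In PV, SMAD1 had 136 and T 115. Inputs stood at 39.4 for PV, 24.6 for BV and 14.2 for BVSC. The exception, SMAD1 at 36 h in BV, was at the level of input PV and above both inputs labelled BV.

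Over the input of the same line, the BV libraries of SMAD1 measured 7.23 at 12 h (7.04 to 7.43), 9.02 at 24 h (8.81 to 9.24) and 1.61 at 36 h (1.54 to 1.69). SMAD1 at 36 h in PV measured 3.45 (3.35 to 3.56), T 2.92 (2.82 to 3.02) and TCF1 3.41 (3.31 to 3.51). All 6 libraries therefore had a ratio above 1 to the input of their line. Only SMAD1 was measured in both lines, T in PV and TCF1 in BV alone. The sizes depend on the input used, since input PV exceeded input BV by 1.60 (1.55 to 1.66) and input BVSC by 2.77 (2.64 to 2.91) at this site. Over input BVSC every ratio was larger, from 2.79 for SMAD1 at 36 h in BV to 15.6 at 24 h. Over input PV, SMAD1 at 36 h in BV measured 1.01 (0.956 to 1.06), so its excess was present only against the inputs labelled BV, while the other BV libraries still measured 4.51 at 12 h, 5.63 at 24 h and 2.13 for TCF1.

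**Figure D1:**
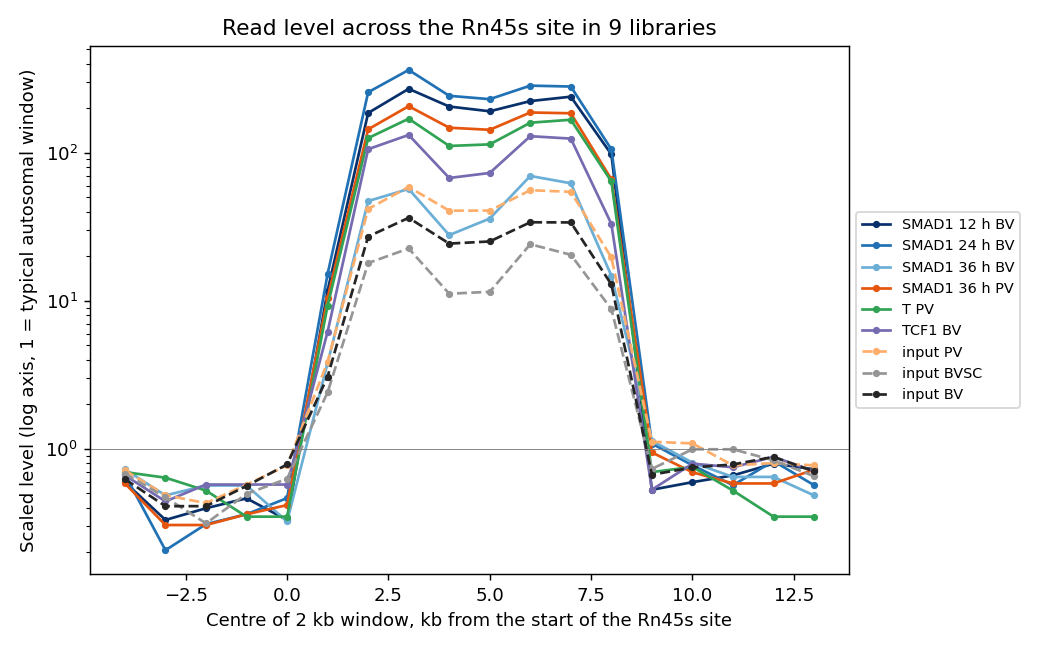
Scaled read level (log axis) in windows of 2 kb across Rn45s and its flanks, against the distance of the window centre from the start of the site in kb, with immunoprecipitated libraries as solid lines and inputs as dashed lines. All 9 libraries rise and end at the same windows, and SMAD1 at 36 h in BV, whose highest window is 69.7, exceeds every input in 3 of the 8 windows of the site and not in the rest, while the other 5 run above the inputs in all 8.

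Outside the site the level was near or under the typical one in all libraries. In the neighbouring windows at 39977001 and 39986001, which overlap the ends of the site by 1 kb, SMAD1 at 12 h had levels of 0.33 and 0.53 and input BV of 0.78 and 0.67. The 8 windows of the site all had intervals above 1 in 5 immunoprecipitated libraries, and 6 of 8 did in the BV library of SMAD1 at 36 h. Ratios for SMAD1 at 12 h ran from 3.81 in the first window to 8.43 at 39981001. Those for T ran from 2.40 to 3.26 and those for TCF1 from 2.01 to 3.89.

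Within the site 2 maxima stood on either side of a lower middle. The highest window was the one at 39980001 in 7 of the 9 libraries, with levels from 36.3 in input BV to 362 in SMAD1 at 24 h. In SMAD1 at 36 h in BV and in input BVSC it was the one at 39983001 (69.7 and 24.1). The depth of the middle differed between libraries, as read from its windows at 39981001 and 39982001, given in that order as shares of the library's highest window. They were 75.9 and 70.5% in SMAD1 at 12 h, 66.9 and 63.5% at 24 h, and 71.6 and 69.2% in SMAD1 in PV. T had 65.4 and 67.1%, input PV 69.1 and 69.2% and input BV 67.0 and 69.2%. Lower shares were found in TCF1 (51.2 and 55.4%), input BVSC (46.3 and 47.7%) and SMAD1 at 36 h in BV (39.9 and 51.6%). These 3 libraries, 1 of them an input, had the lowest values in both windows.

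Along the SMAD1 time course in BV, which shares 1 input, immunoprecipitated levels were compared directly. At Rn45s the 24 h library was 1.25 times that at 12 h (1.22 to 1.28), and the 36 h library 0.223 times (0.213 to 0.234). Over all 121 regions the medians were 0.959 (0.911 to 1.02) and 0.936 (0.879 to 0.972), beside 1.01 and 1.00 in tiles of 8 kb elsewhere, so the low 36 h level at Rn45s was not shared by the high-copy regions as a whole. No region was at least 2-fold higher at 24 h than at 12 h, beside 0.0887% of tiles, and none at 36 h, beside 0.146%. At least 2-fold lower at 24 h was 1 region, on chromosome 9 at 111089001 (0.0514% of tiles), and 6 regions (4.96%) were so at 36 h (0.206% of tiles). Of these 6, the lowest 4 were Rn45s and the regions on chromosomes 11, 6 and 5 described next, and the others, on chromosome 9 at 111089001 and chromosome 8 at 105343001, measured 0.439 and 0.488 on 9 and 6 reads at 36 h.

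Besides Rn45s, 3 short regions were at least 2-fold above input in 5 or 6 immunoprecipitated libraries. They lie on chromosome 6 at 3150001 to 3153001, chromosome 11 at 108872001 to 108875001 and chromosome 5 at 147071001 to 147074001. The files give no sequence or annotation for these places. On chromosome 6, SMAD1 in BV had a level of 16.0 at 12 h, 19.3 at 24 h and 5.57 at 36 h, and TCF1 one of 9.93. SMAD1 in PV stood at 12.8 and T at 11.6, against 3.23, 2.06 and 2.49 in inputs PV, BVSC and BV. All 6 immunoprecipitated values lay above the 3 inputs there, and the order of the SMAD1 libraries was that of Rn45s. The ratios were 6.42 (5.38 to 7.65) at 12 h, 7.72 (6.59 to 9.05) at 24 h and 2.23 (1.69 to 2.92) at 36 h for SMAD1 in BV. In PV, SMAD1 measured 3.96 (3.22 to 4.91) and T 3.59 (2.83 to 4.56), and TCF1 in BV measured 3.98 (3.32 to 4.76).

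On chromosome 11, SMAD1 in BV had a level of 17.7 at 12 h, 24.3 at 24 h and 5.25 at 36 h, SMAD1 in PV 16.0, T 14.2 and TCF1 9.71, against 4.35, 2.19 and 3.68 in inputs PV, BVSC and BV. On chromosome 5 the same libraries stood at 14.6, 21.5, 5.25, 12.0, 9.51 and 6.93, against 4.49, 1.91 and 2.97. SMAD1 at 24 h was the highest and SMAD1 at 36 h in BV the lowest of the 6 at each of these places, as at Rn45s. The ratios at 24 h were 6.60 (5.77 to 7.55) on chromosome 11 and 7.26 (6.27 to 8.41) on chromosome 5, and at 36 h in BV 1.43 (1.08 to 1.86) and 1.77 (1.33 to 2.31).

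Relative to the Rn45s level of the same library, these regions kept within a narrow band in all 9 libraries, inputs included. The chromosome 6 region stood between 8.20 and 14.5% of Rn45s, the chromosome 11 region between 9.96 and 15.4% and the chromosome 5 region between 8.22 and 13.4%, while the Rn45s level itself ranged from 14.2 to 222. The highest share was found in the library with the lowest Rn45s level, input BVSC, in each case. These levels come from the same libraries as those of Rn45s, so the band is a description. The 3 regions were also picked for ratios of at least 2 in 5 or 6 libraries, as Rn45s had in 5. Part of their likeness to it therefore comes from the choice. Regions raised in 2 libraries, on chromosome 12 at 20236001 and chromosome 6 at 29697001, spanned 2.04 to 20.9% and 2.79 to 22.8% of Rn45s.

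**Figure D2:**
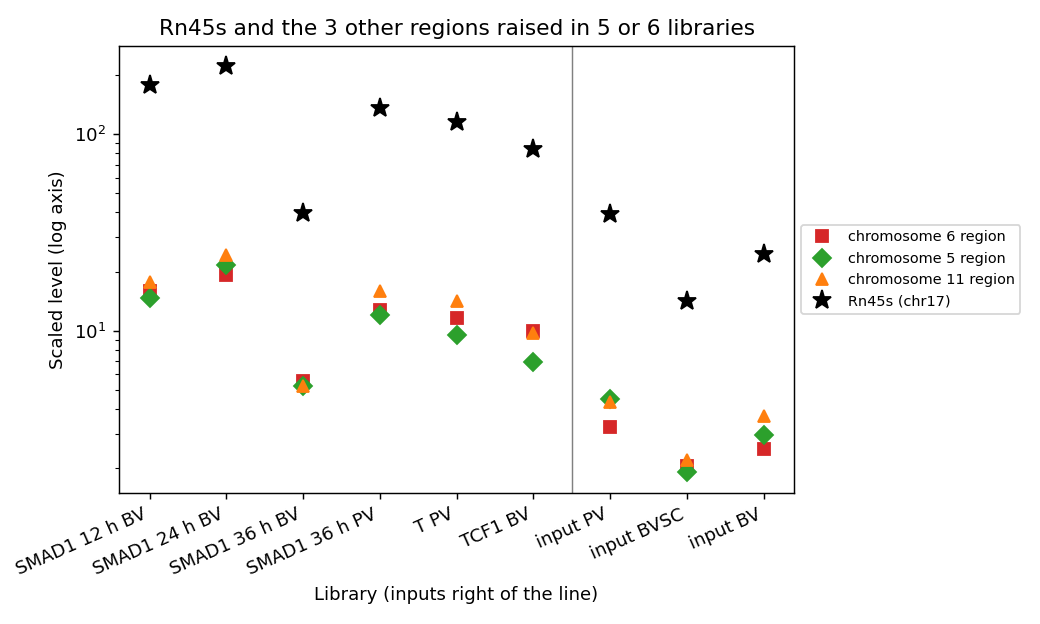
Scaled level (log axis) of Rn45s and of the regions on chromosomes 5, 6 and 11 in each of the 9 libraries, inputs to the right of the line. The points of the 3 regions follow those of Rn45s from library to library, with SMAD1 at 24 h highest (222 at Rn45s) and input BVSC lowest (14.2).

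Most of the 121 regions, the 4 places above included, lay within 2-fold of the input of the same line, from 108 for T to 117 for SMAD1 at 36 h in BV. The median ratio over the 121 regions was, for SMAD1 in BV, 1.15 (1.06 to 1.19) at 12 h, 1.09 (1.01 to 1.15) at 24 h and 1.07 (1.05 to 1.13) at 36 h, and for SMAD1 in PV 1.03 (0.971 to 1.08). It was 0.919 (0.878 to 0.958) for T and 1.02 (0.964 to 1.09) for TCF1. These intervals are taken from region ranks, and regions are no replicates. Medians near 1 hid smaller departures in both directions. Counting intervals of single regions lay above 1 at 45, 37 and 32 regions for SMAD1 in BV in order of time, and below 1 at 9, 14 and 8. The numbers above and below 1 were 31 and 20 for SMAD1 in PV, 15 and 30 for T and 34 and 28 for TCF1. Tiles of 8 kb elsewhere had medians between 0.969 (T) and 0.996 (SMAD1 at 24 h). A tile of typical level held 49.6 counts in the shallowest library, and single windows 12.4, so both backgrounds include counting noise.

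For SMAD1 at 12 h, 8 regions (6.61%) were at least 2-fold above input, beside 0.117% of tiles and 1.43% of single windows elsewhere, and 2 were at least 2-fold below, beside 0.377% and 6.27%. SMAD1 at 24 h had 4 regions above, beside 0.0369% of tiles and 0.59% of windows, which are Rn45s and the 3 regions just described, and 1 below, beside 0.158% and 4.08%. At 36 h in BV only the chromosome 6 region was above (0.0187% of tiles, 1.06% of windows), and 3 regions were below (0.412% and 6.53%). SMAD1 at 36 h in PV had 5 above (0.0545% and 1.04%) and 6 below (0.0659% and 2.65%). For T, 5 were above (0.349% and 2.33%) and 8 below (0.471% and 6.87%), and for TCF1, 6 were above (0.0545% and 1.4%) and 6 below (1.76% and 8.83%). In all, 111 of the 121 regions were at least 2-fold higher in no library and 109 at least 2-fold lower in none. These counts depend on the input: over input BVSC, SMAD1 at 24 h had 10 regions above and 11 below, and SMAD1 at 36 h in BV 8 and 7. The share of regions below input exceeded that of tiles in every library, but exceeded that of single windows only for SMAD1 in PV (4.96%). The inputs that chose the members are also the denominators, and the background has no input above 3. The choice can therefore favour low ratios among members. With members chosen by the other 2 inputs, 0 of 97 regions were below for SMAD1 in PV and 1 of 97 for T. The BV counts moved little: 2, 1 and 2 of 121 for SMAD1 in order of time, in place of 2, 1 and 3. For TCF1 in BV it was 5 of 121, in place of 6. Why the lines differed in this was not tested.

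**Figure D3:**
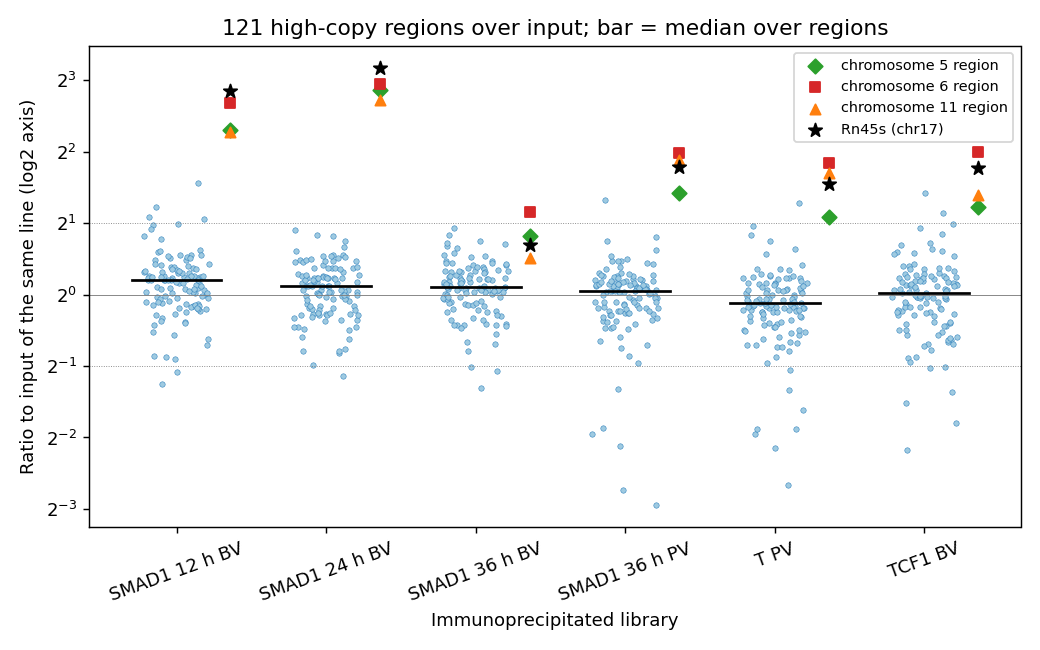
Ratio to the input of the same line (log2 axis) of each of the 121 regions in the 6 immunoprecipitated libraries, with the median as a bar and dotted lines at 2-fold. Rn45s and the regions on chromosomes 5, 6 and 11 pass 2-fold in 5 libraries, whereas among the BV values of SMAD1 at 36 h only the chromosome 6 region does, and the lowest points (0.129 and 0.151) belong to SMAD1 in PV.

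A different order was seen on chromosome 12 at 20236001 to 20240001, chosen after its values were seen. There SMAD1 in BV stood at 9.62 at 12 h, 5.78 at 24 h and 5.13 at 36 h, and in PV at 5.42, with T at 2.35 and TCF1 at 4.04, against 2.17, 2.98 and 3.27 in inputs PV, BVSC and BV. All 4 SMAD1 libraries exceeded all inputs. SMAD1 measured 2.94 (2.56 to 3.38) at 12 h and 2.49 (2.06 to 3.02) in PV, T 1.08 (0.814 to 1.42) and TCF1 1.23 (1.04 to 1.45). In PV, T was 0.434 times SMAD1 here (0.337 to 0.552), the lowest value of all regions, beside a median of 0.925 over the regions and 0.990 over tiles. In that comparison 3 regions were at least 2-fold lower for T (0.154% of tiles), this one and those on chromosome 3 at 60403001 and chromosome 5 at 15005001. T had 81 reads on chromosome 12, but only 11 on chromosome 3 and 26 on chromosome 5. The 2 that were at least 2-fold higher (0.296% of tiles) were chromosome 13 at 4559001, with 2.32 (1.52 to 3.55), and chromosome 18 at 7320001, with 2.51 on 6 and 5 reads.

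TCF1 had its own highest ratio outside Rn45s and the regions that followed it, on chromosome 6 at 29697001 to 29700001. TCF1 stood there at 9.26, SMAD1 in BV at 8.07, 6.19 and 4.04 in order of time, SMAD1 in PV at 5.89 and T at 6.21, against 3.49, 3.24 and 3.46 in the inputs PV, BVSC and BV. The ratio was 2.67 (2.25 to 3.17) for TCF1 and 2.33 (1.88 to 2.86) for SMAD1 at 12 h, whereas the interval of SMAD1 at 36 h in BV included 1 (1.16 with an upper limit of 1.57). The other regions at least 2-fold above input in some library, again named after their values were seen, were chromosome 17 at 13733001 and chromosome 9 at 123781001 for SMAD1 at 12 h (2.12 and 2.09), chromosome 6 at 47597001 for TCF1 (2.21) and chromosome 18 at 7320001 for T (2.43, 0.618 to 10.1).

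The 10 regions with the most input, apart from Rn45s, had ratios between 0.664 and 1.45. The region on chromosome 2 at 98501001 had a level of 1793 in input PV, 1622 in input BVSC and 1708 in input BV, and its highest window reached 5544. Immunoprecipitated libraries stood there at 2050.2, 1749 and 2365 for SMAD1 in BV in order of time, 1945 for SMAD1 in PV, 1714 for T and 1662 for TCF1. Ratios ran from 0.956 (0.949 to 0.962) for T to 1.39 (1.38 to 1.39) for SMAD1 at 36 h in BV. Counting error is small at this depth, and whether libraries made again would differ as much cannot be read from these data.

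The same library led at 4 more of the 10 regions of highest input. At 35111001, 2998001 and 3014001 of chromosome 9 and 3108001 of chromosome 12, in that order, SMAD1 in BV measured 1.26, 1.20, 1.17 and 1.17 at 12 h, 1.01, 0.960, 0.985 and 0.961 at 24 h and 1.38, 1.35, 1.33 and 1.35 at 36 h. Here SMAD1 at 36 h in BV was the highest library, the reverse of Rn45s, where it was the lowest. T measured between 0.853 and 1.04 at these places, and TCF1 between 0.886 and 1.04. Except for the first, they lie within 500 kb of the first covered window of their chromosome.

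The other regions of highest input each had another pattern. On chromosome 6 at 103597001 every library was below input, from 0.664 (0.639 to 0.690) for TCF1 to 0.852 (0.817 to 0.887) for SMAD1 at 12 h. On chromosome 15 at 74915001 every library was above, from 1.11 (1.04 to 1.19) for T to 1.40 (1.33 to 1.48) for SMAD1 at 24 h. On chromosome 11 at 3026001 to 3102001, the second widest region with 75 windows and an input level of 27.9 in PV, 23.7 in BVSC and 25.0 in BV, ratios lay between 1.02 for T and 1.20 for SMAD1 at 12 h. On chromosome 12 at 75903001, the tenth, they lay between 0.919 for T and 1.45 for SMAD1 at 12 h.

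**Figure D4:**
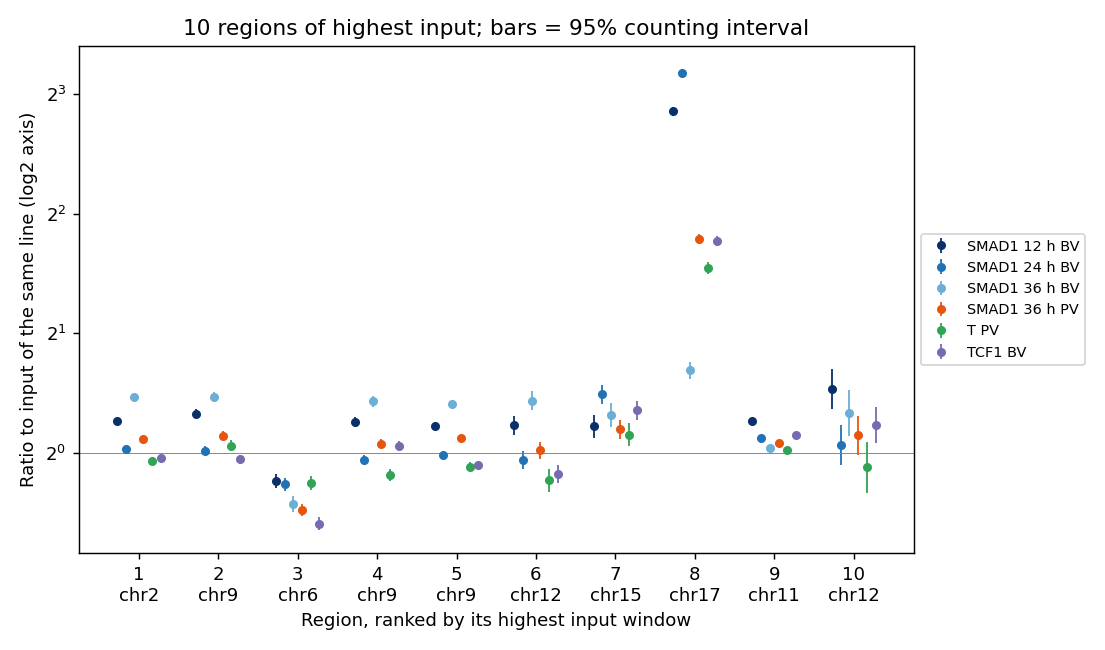
Ratio to the input of the same line (log2 axis) with 95% counting intervals for the 10 regions ranked by their highest input window, one colour per immunoprecipitated library. The eighth, Rn45s, reaches 9.02 and is led by SMAD1 at 24 h, whereas in regions 1, 2, 4, 5 and 6 SMAD1 at 36 h in BV is highest, with values from 1.33 to 1.39.

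The regions were sorted by which inputs exceeded the threshold. All 3 inputs exceeded 3 at 48 regions, PV and BV at 11, BVSC and BV at 11, PV and BVSC at 3, PV alone at 27, BVSC alone at 18 and BV alone at 3. The immunoprecipitated libraries, which took no part in this choice, were set against these classes. At 9 of the 11 regions high in BVSC and BV only, all 4 immunoprecipitated BV libraries exceeded both PV libraries, beside 7.37% of tiles. The exceptions lie on chromosome 12 at 20236001 and chromosome 13 at 4559001. At 9 of the 27 regions high in PV alone, both immunoprecipitated PV libraries exceeded all 4 of BV, beside 7.17% of tiles. Among the 48 regions high in all 3 inputs, PV stood above BV in this way at 7, and BV above PV at 10. Those shares also exceed the shares of tiles, so an excess over tiles alone does not set a class apart. Some of the 9 are close neighbours (chromosome 4, 62158001 to 62171001, and chromosome 8, 72122001 to 72128001), so the 9 are not all separate places.

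The widest region of all, on chromosome 10 at 44090001 to 44320001 with 229 windows, was high in BVSC and BV only. It lies where mm9 places Prdm1 (Blimp1), the gene of the BV reporter. The level was between 11.3 and 12.3 in the immunoprecipitated BV libraries, 1.37 and 1.34 in those of PV, 11.5 in input BV, 5.89 in input BVSC and 1.20 in input PV, and ratios stayed between 0.985 and 1.14. The fourth widest, on chromosome 3 at 25417001 to 25457001, stood between 3.46 and 3.62 in immunoprecipitated BV libraries, at 4.05 in input BV and 3.93 in input BVSC, but at 0.931, 0.870 and 1.03 in SMAD1, T and input of PV. A short one on chromosome 17 at 36620001 to 36623001, chosen after its values were seen, stood between 13.0 and 14.6 in the same BV libraries and at 1.44 and 0.870 in those of PV. The third widest, on chromosome 1 at 90108001 to 90167001, was high in every input (3.93 in PV, 4.74 in BVSC and 4.79 in BV), with ratios from 1.05 for T to 1.34 for TCF1.

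**Figure D5:**
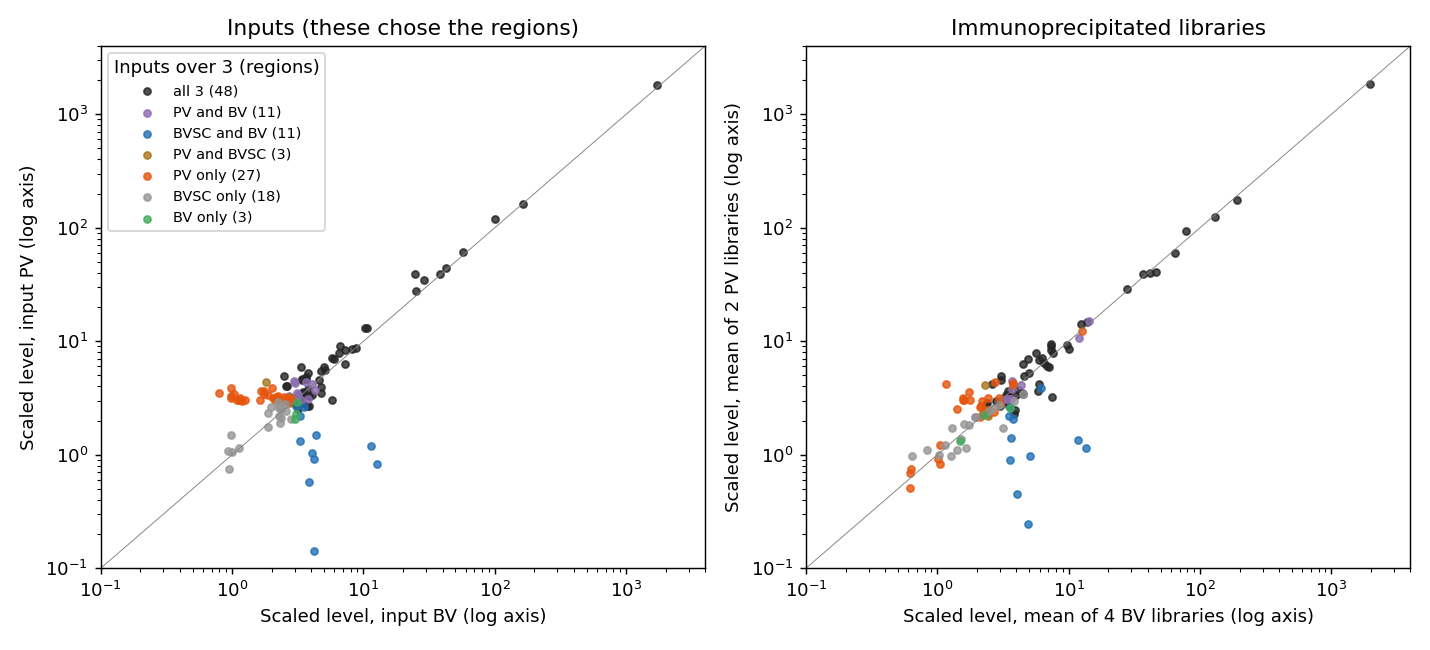
Scaled level (log axes) of the 121 regions in the PV line against the BV line, for the inputs that chose them (left) and as means of the immunoprecipitated libraries (right), coloured by which inputs exceeded 3. Most of the 11 regions high in BVSC and BV only lie below the diagonal in both panels, while several of the 27 high in PV alone return to a level near 1 in the right panel.

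At 11 regions (chosen after their values were seen) every immunoprecipitated library was below 0.5 of the highest input, beside 0.141% of tiles. Members needed an input above 3 and tiles had none, so the choice itself favours this excess. No conclusion is drawn from the comparison with tiles. Of these, 5 were high in PV alone, 5 in BVSC alone and 1 in all 3. On chromosome 7 at 98416001 to 98419001 input PV held 135 reads, a level of 3.86, whereas input BVSC stood at 0.888 and input BV at 0.989. SMAD1 in PV stood at 0.500 and T at 0.870, and the BV libraries between 0.485 and 0.726. Of the 9 libraries, only input PV was high there. Chromosome 5 at 7075001 (3.32 in input PV, 0.500 for SMAD1 and 0.522 for T in PV) and chromosome 8 at 105343001 (0.694 for SMAD1 and 0.812 for T in PV) had the same form. Such regions supplied the lowest ratios of the PV libraries, 0.129 (0.0745 to 0.212) for SMAD1 on chromosome 7 and 0.157 (0.0701 to 0.309) for T on chromosome 5. When members were chosen only by the 2 inputs that were not the denominator, the PV libraries had 97 regions in place of 121. Of the 97, 0 were at least 2-fold below input for SMAD1 in PV, in place of 6, and 1 for T, in place of 8.

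The 1 such region high in all inputs lies on chromosome 1 at 24618001 to 24621001. Its level was 8.57 in input BVSC, 4.01 in input PV and 2.61 in input BV. SMAD1 in BV stood at 2.51, 2.74 and 3.47 in order of time and in PV at 3.14, T at 2.32 and TCF1 at 0.750. TCF1, with 17 reads, was the only library below the typical level there and measured 0.287 of its input (0.165 to 0.468), while the intervals of all 4 SMAD1 libraries included 1.

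The lowest ratios of SMAD1 in BV were 0.420 (0.214 to 0.750) at 12 h on chromosome 3 at 106014001, 0.452 (0.221 to 0.834) at 24 h on chromosome 9 at 111089001 and 0.406 (0.146 to 0.907) at 36 h on chromosome 8 at 105343001, each a region of 1 window. After the chromosome 6 region, the highest of SMAD1 at 36 h were 1.91 (1.47 to 2.44) on chromosome 8 at 19972001 and 1.78 (1.11 to 2.76) on chromosome 4 at 62169001, both in regions above 3 in an input of the other line and both under 2.

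Regions also came in chains. Of the 121, 57 had another within 100 kb, and 6 chains held 4 regions or more. Chromosome 3 between 105933001 and 106037001 held 7, all above 3 in input BVSC alone. Their median level was 3.08 in that input, 2.17 in input PV and 2.27 in input BV, with immunoprecipitated medians between 1.24 (TCF1) and 1.86 (SMAD1 at 36 h in BV). Chromosome 8 between 19918001 and 19988001 held 7 as well, with median levels of 4.03 in input PV and 1.80 in input BV, 4.63 for SMAD1 and 3.64 for T in PV, and between 2.17 and 3.03 in the immunoprecipitated BV libraries. Chromosome 4 held 7 between 146709001 and 146974001, where median ratios ran from 0.862 for T to 1.15 for SMAD1 at 12 h, and 4 more between 145661001 and 145744001. The chain on chromosome 16 between 3232001 and 3268001 had median ratios between 0.627 (TCF1) and 0.815 (SMAD1 at 12 h), but its 4 regions differed: the first, at 3232001 to 3237001, was above input in all 6 libraries, from 1.15 for SMAD1 in PV to 1.67 for T, and the other 3 were below it.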

How the data were processed

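The deposited tables give raw counts of reads, whole numbers in every library, for windows 2 kb wide placed every 1 kb. The submitters' processing notes list Bowtie 0.12.8 as a tool and mm9 as a build. The treatment of duplicate or multiply placed reads, which bears on every repeat here, is not given in the sources used here. The labels' protocols give single-end reads of 50 bp. The 17 windows of the mitochondrial genome were listed at 0 in all libraries.

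Scaled levels divide the counts of a library by their mean over 1977886 autosomal windows between the 10th and 90th percentile of mean input. Member windows exceeded 3 in any input, and overlapping or adjoining ones were merged. Reads of a region were summed over its non-overlapping windows, which left out 1 kb in 59 regions and 2 kb in 3. Ratios used input BV for BV and input PV for PV, with no pseudocount. The background was 262591 tiles of 8 kb, or single windows, with a mean input of at least 0.25 and no input above 3. With 1 library per group no test across libraries was made. Regions named are Rn45s, the 10 of highest input, the 5 widest, and the 3 highest and 3 lowest ratios per library among regions with at least 50 input reads, except where the text says otherwise. The members and lists were chosen with earlier results of these data known. The computation was checked on simulated data. Python 3.11.15, numpy 2.4.6, pandas 2.3.3, scipy 1.17.1 and matplotlib 3.10.9 were used.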

Additional observations from a re-analysis of the deposited data

How the results depend on the processing

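Each group had 1 library, so leaving out a replicate was not possible. No paired analysis was possible because no group had replicates. Scaling to total autosomal reads kept all 27 results within the margins set for them. At Rn45s only this scaling and input BVSC were tried as settings, and neither took a ratio below 1. Input PV was not among these settings, and over it SMAD1 at 36 h in BV measured 1.01 (0.956 to 1.06). With input BVSC as the background for all libraries, the ratio at Rn45s was 12.5, 15.6 and 2.79 for SMAD1 in BV at 12, 24 and 36 h, 9.56 for SMAD1 in PV, 8.08 for T and 5.90 for TCF1. The median over regions was then 1.01 for SMAD1 at 24 h, 1.04 at 36 h in BV and 0.918 for TCF1. Regions at least 2-fold above were 10 for SMAD1 at 24 h, 8 at 36 h in BV, 17 in PV, 15 for T and 10 for TCF1, and those at least 2-fold below were 11, 11, 7 and 19 for SMAD1 at 12, 24 and 36 h in BV and in PV, 19 for T and 16 for TCF1. With a threshold of 4, 74 regions were members in place of 121. Of the 74, SMAD1 had 4 above at 12 h, 0 at 36 h in BV and 3 in PV. Below were 0, 0, 1 and 1 for SMAD1 at 12, 24 and 36 h in BV and in PV. T and TCF1 had 1 below each. Choosing members by the 2 inputs that were not the denominator left 0 of 97 regions below for SMAD1 in PV and 1 of 97 for T. In BV it left 2, 1 and 2 of 121 below for SMAD1 at 12, 24 and 36 h, and 5 of 121 for TCF1. Counted as single windows, of which there were 797 and which overlap, the counts are not on the scale of 121 regions. Above were 26, 17, 5, 23, 26 and 21 for SMAD1 at 12, 24 and 36 h in BV and in PV, T and TCF1. Below were 5 (SMAD1 at 12 h), 6 (36 h in BV), 12 (PV), 23 (T) and 21 (TCF1). The median for T was 0.976. Background shares are given above for single windows and not for the other settings. A pseudocount of 0.5 left 0 regions below for SMAD1 at 12, 24 and 36 h in BV. Choosing members without input BVSC, an alternative chosen after seeing the data, left 104 regions, of which 1 was below for SMAD1 at 12 h. The cause of these shifts was not tested.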
